A study of Rattus norvegicus with 16 samples.

Results

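The set described here holds 9 genes of nucleotide supply, the replication fork and its control. They are Rrm1 and Rrm2 (ribonucleotide reductase), Prim1 (primase), Rpa2 (a subunit of replication protein A, RPA), Fen1 (flap endonuclease), Lig1 (DNA ligase), Ung (uracil-DNA glycosylase), Gmnn (geminin) and Dtl (a receptor of a ubiquitin ligase). They were taken by symbol from 6241 named genes among 12559 genes and unnamed features tested on a cDNA chip. The set was chosen with earlier results of these data known, so its counts are not those of a blindly chosen set. All 9 were found, on 14 array features in all: 3 for Rrm2, 2 each for Fen1, Rpa2 and Dtl, and 1 for each of the other 5. A feature counted only where the chip annotation gave it exactly 1 symbol, and features of 1 gene were averaged on each array. No filter on low values was applied, so every member stayed in the test.

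The cells were neural stem and progenitor cells of the neocortex of Sprague-Dawley rat embryos at day 14.5, grown as a monolayer in FGF-2, the mitogen that maintains them, at 10 ng/ml. The 4 groups were cells given PDGF-AA at 10 ng/ml for 6 d, cells without added factor for 6 d, cells given PDGF-AA for 12 h and cells without factor for 12 h. The labels call the cells without factor untreated and do not say whether FGF-2 was left out of the medium in these groups. Each group had 4 two-colour arrays, and every array carried RNA from FGF-2-treated cells as the common reference. The dyes were swapped on 2 of the 4 arrays of each group. The labels name no genetic change in any group. They state that a time point drew on 2 or more batches of RNA but not which arrays share one, so the p-values measure the spread between hybridisations, part of which may be technical. Each value is the log2 ratio of a sample over the FGF-2 reference, centred on the median of its array. The log base is taken as 2. The direction of the ratio (sample divided by FGF-2 reference) is not stated and was judged likely from the data.

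The direction was read from genes known to be induced by FGF and ERK signalling, which share no member with the 9. After 12 h without factor, the feedback inhibitor gene Spry4 stood at -1.56 ± 0.34 (SE, limma adjusted p = 0.00544), the transcription factor gene Etv5 at -1.04 ± 0.15 (adjusted p = 0.000196) and Egr1 at -1.49 ± 0.23 (adjusted p = 0.000414). Of the 7 measured genes of that list, 3 were called lower in this group and 0 higher. This reading assumes that FGF-2 acted less on the cells without factor than on the reference cells, which the labels do not state. Every sign below rests on this reading.

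Copying DNA needs deoxyribonucleotides, which ribonucleotide reductase makes from ribonucleotides, with Rrm1 as the large catalytic subunit and Rrm2 as the small subunit whose level rises in S phase. At the fork, primase lays down RNA primers, RPA coats the unwound strand, the flap endonuclease trims the displaced primer and DNA ligase I seals the nick that is left. Uracil-DNA glycosylase cuts out uracil that was built into DNA. Geminin binds the licensing factor Cdt1 so that an origin does not fire again in the same cycle, and Dtl directs Cdt1 to degradation during S phase. Dividing progenitors of the embryonic cortex use all of these enzymes, and many of their genes are known targets of E2F factors.

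The proximal promoters are shown for the members whose annotated gene start and promoter table start coincide and which hold a searched motif. Rat promoter sequences from RefSeq (build GRCr8) were listed for 8 of the 9 members (Rrm2 was not among them), and the 250 bases before each start were searched on both strands. E2F words (TTTCCCGC, TTTCGCGC, TTTGCCGC or TTTGGCGC) lay in 2 of the 8, Ung and Dtl, against 1.73% of all 33469 promoters. Ung was called lower in no group, and its annotated gene reaches 744 bases further upstream than its promoter table start. The NF-Y box CCAAT lay in 5 of the 8 (Rrm1, Rpa2, Ung, Gmnn and Dtl), against 11385 of the 33469. The cell cycle element TTTGAA lay in 1, Ung, against 16.2% of all. The searched words of the 3 motifs do not overlap each other in the stretches printed here. The Rrm1 stretch, which begins 250 bases before the start, lies on the plus strand at chr1:166235654-166235734 and the Dtl stretch, which ends at the base before the start, on the minus strand at chr13:105685922-105686005, both read 5′ to 3′, with matches in capitals.
Rrm1: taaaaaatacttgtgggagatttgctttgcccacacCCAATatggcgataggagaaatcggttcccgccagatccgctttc
Dtl: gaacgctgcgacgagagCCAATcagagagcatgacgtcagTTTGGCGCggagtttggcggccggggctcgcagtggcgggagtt
These matches describe letters in a window upstream of the start and no binding was measured. A link between the matches and the members' values was not tested. For the other 6 listed members the annotated gene reaches 26 to 744 bases further upstream than the table's start, so their windows overlap the gene and are not printed.

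On the whole chip, the 16 deposited columns had medians between -0.0053 and 0.0387, and arrays of different groups with the same dye correlated at 0.0549 or above. Over all pairs of arrays the correlations ran from -0.45 to 0.73. A dye effect was called for 39.1% of all genes and features, and among the members for Prim1 at 0.45 and Gmnn at 0.31, added with the sample in Cy5 and subtracted with it in Cy3. The first number in the array titles, whose meaning the labels do not give, was the same on 12 arrays, called the common title number here, while 3 PDGF-AA arrays and 1 no factor array of 6 d had another. Pcna and Tyms were not analysed here as single-symbol features.

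At 6 d, 2 arrays stood apart from their groups, and this touches every 6 d result. On replicate 4 with PDGF-AA the 9 members averaged -0.96, against 0.33, -0.19 and -0.15 on the other PDGF-AA arrays. On replicate 4 without factor they averaged -0.23, against -0.71, -0.66 and -1.03 on the other arrays without factor. Pdgfra, the receptor gene of PDGF-AA, showed the same split, with 2.71 on PDGF-AA replicate 4 against 0.08 to 0.52 on the other 3 PDGF-AA arrays, and -0.60 on no factor replicate 4 against 1.94 to 2.63 on the other 3 no factor arrays. Over all 12559 genes and features, with the dye effect taken from the 12 h arrays, PDGF-AA replicate 4 correlated at 0.293 with the other PDGF-AA arrays and at 0.603 with the no factor arrays. No factor replicate 4 correlated at 0.509 with the PDGF-AA arrays and at 0.383 with the other no factor arrays. PDGF-AA replicates 1 to 3 each also correlated less with the other PDGF-AA arrays (0.00491 to 0.270) than with the no factor arrays (0.158 to 0.349). PDGF-AA replicate 4 is also the only PDGF-AA array of 6 d with the common title number, so the array and its title number cannot be told apart. On these measures each replicate 4 array was more like the other 6 d group than its own. Whether the pair was exchanged was not tested, and an exchange would change every 6 d value. Another array was apart on the 7 measured genes of FGF and ERK signalling. There PDGF-AA replicate 1 averaged 0.12, against -0.89, -0.83 and -0.82 on replicates 2, 3 and 4. All arrays kept their labels, and 6 d results of the 9 genes are given with and without both replicate 4 arrays, a choice made after their values were seen. Both arrays were set apart in part by values of the 9 genes and Pdgfra. Calls of these genes made without both arrays are therefore descriptions and not independent support.

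**Figure D1:**
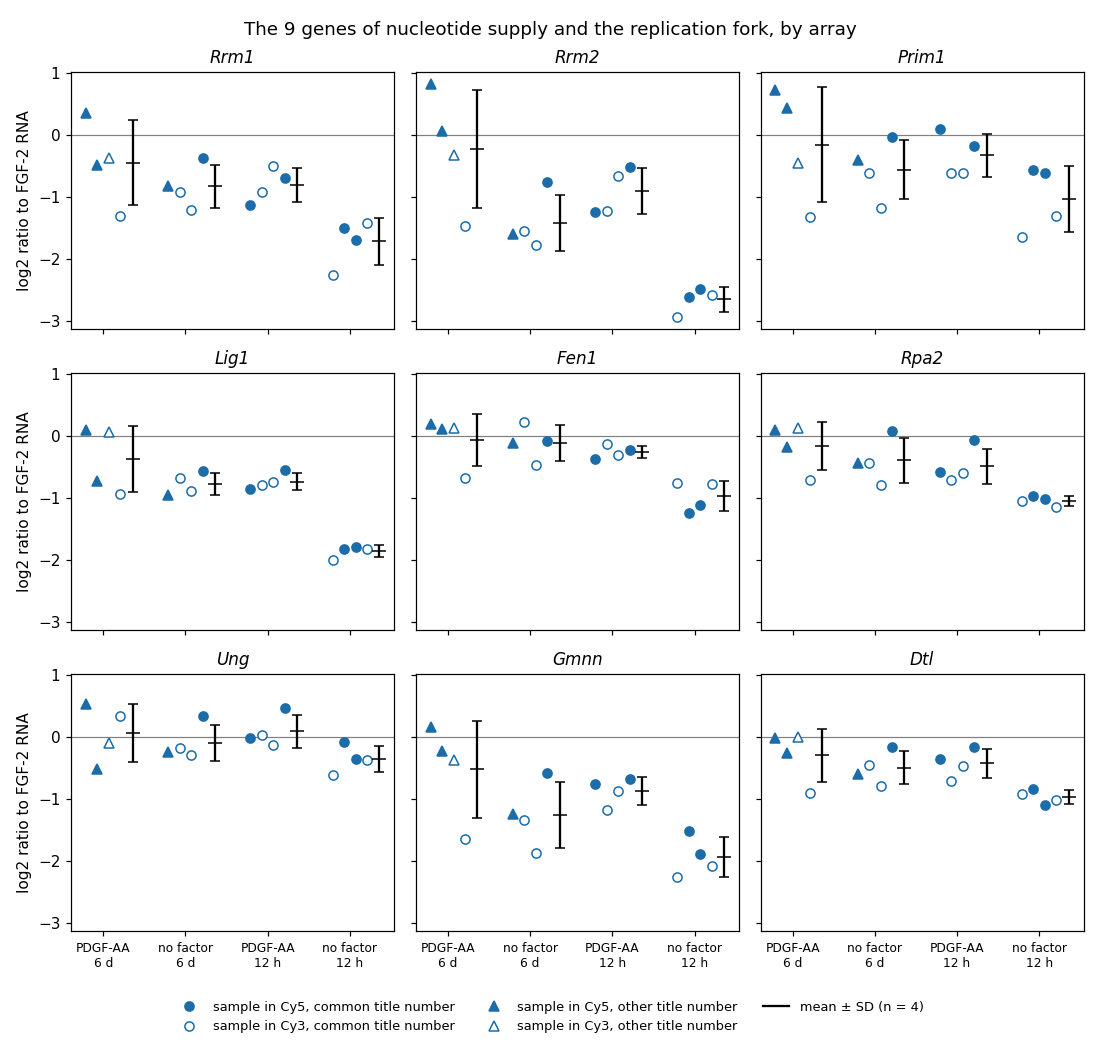
Log2 ratio to FGF-2 RNA of the 9 genes (vertical axis) on each of the 16 arrays, by group (horizontal axis), with symbols for dye and title number and bars for the group mean ± SD (n = 4). All 9 genes lie below 0 on all 4 arrays without factor at 12 h, and PDGF-AA 6 d replicate 4, the open circle of that group, is the lowest of its group for 8 of the 9 genes.

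After 12 h without factor, 8 of the 9 members were lower than in FGF-2 cells by limma with Benjamini-Hochberg adjustment, at a threshold of 0.05, where 6.48% of all genes and features were called lower. Rrm2, the small reductase subunit, was the lowest of all 12559, at -2.66 ± 0.22 (SE), a level 6.30-fold below the reference (adjusted p = 2.35e-06). Gmnn ranked 7, Lig1 16 and Rrm1 25 from the lowest. Ung was the member that did not pass, at -0.35 ± 0.15 (adjusted p = 0.154). The median of the 9 was -1.04, against -0.0010 for all genes and features. All 4 arrays lay below 0 for all 9 members, as they did for 12% of all genes and features. Without both replicate 4 arrays of 6 d the count was again 8 of 9, with 6.69% of all called lower. In bulk RNA, fewer cells in S phase and less of a transcript in each such cell cannot be told apart, here and in each result below.

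For the reductase, Rrm2 read -2.94, -2.62, -2.48 and -2.58 on the 4 arrays without factor at 12 h. Rrm1 read -2.27, -1.50, -1.70 and -1.42 on the same arrays, or -1.72 ± 0.19 (SE) in the fit (3.29-fold lower, adjusted p = 1.55e-05). The SD over these arrays was 0.20 for Rrm2 and 0.38 for Rrm1, with replicate 1 the lowest for both. The 3 Rrm2 features stood at -3.06, -2.97 and -1.93 and each was called lower on its own, so the size depended on the feature and the call did not.

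Prim1, which makes the primers, read -1.65, -0.57, -0.61 and -1.32 without factor at 12 h, and the fit gave -1.04 ± 0.15 (2.05-fold lower, adjusted p = 0.000224). The arrays with the sample in Cy3 averaged -1.48 and those with it in Cy5 -0.59, the widest dye gap among the members in this group. Rpa2, the RPA subunit, lay between -1.15 and -0.96 on the 4 arrays (fit -1.04 ± 0.13, adjusted p = 4.27e-05). Its features were at -0.66 and -1.43, both called lower.

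Lig1 read -2.00, -1.815, -1.79 and -1.82 on the arrays without factor at 12 h. The fit gave -1.85 ± 0.14 (3.62-fold lower, adjusted p = 1.28e-06), the smallest adjusted p among the members. Fen1, which acts just before the ligase on Okazaki fragments, averaged -0.97 ± 0.24 (SD, n = 4), but its features disagreed. Feature 1 was at -1.85 (adjusted p = 5.04e-06) and feature 2 at -0.09 (adjusted p = 0.848), and over the 16 arrays the pair correlated at -0.024. The Fen1 value therefore averages a feature that fell with one that was not called, and which of them reads the rat transcript was not tested.

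Of the licensing controls, Gmnn read -2.25, -1.50, -1.88 and -2.07 without factor at 12 h, and -1.93 ± 0.17 in the fit (3.80-fold lower, adjusted p = 4.66e-06). Dtl lay between -1.10 and -0.84 on the 4 arrays, at -0.97 ± 0.13 in the fit (1.96-fold lower, adjusted p = 7.64e-05), with both features called lower. Ung lay between -0.60 and -0.07, all below 0 but nearer to it than any other member.

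With PDGF-AA for 12 h, 5 of the 9 members were lower than in FGF-2 cells, where 2.35% of all genes and features were called lower. They were Rrm2 at -0.91 ± 0.22 (adjusted p = 0.0287), Gmnn at -0.87 ± 0.17 (adjusted p = 0.00926), Rrm1 at -0.81 ± 0.19 (adjusted p = 0.0244), Lig1 at -0.74 ± 0.14 (adjusted p = 0.00781) and Rpa2 at -0.49 ± 0.13 (adjusted p = 0.0488). The 4 that did not pass were Dtl at -0.42, Prim1 at -0.33, Fen1 at -0.26 and Ung at 0.09. The Fen1 value averages features that disagreed. Tested singly, feature 1 was called lower (-0.72, limma adjusted p = 0.0448) and feature 2 was not (0.21, adjusted p = 0.774). The median of the 9 was -0.49. The count was 0 of 9 without PDGF-AA 12 h replicate 1 or replicate 2, 2 of 9 without replicate 4 and 1 of 9 (Lig1) without the dye term. The Rpa2 call was lost in 12 of the 16 fits that left out 1 array, and neither Rpa2 feature passed when features were tested singly (adjusted p = 0.0558 and 0.178). Of the 3 Rrm2 features, feature 2 passed singly (adjusted p = 0.0116), and features 1 and 3 did not (0.0588 and 0.0658). With both replicate 4 arrays of 6 d left out the count was 6 of 9, Dtl being added (adjusted p = 0.0243), with 3% of all called lower.

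On the single arrays with PDGF-AA at 12 h, Rrm2 read -1.24, -1.22, -0.67 and -0.52. Rrm1 read -1.13, -0.92, -0.50 and -0.70. Gmnn read -0.76, -1.17, -0.87 and -0.67, and Lig1 -0.86, -0.80, -0.75 and -0.54. All 4 arrays lay below 0 for 7 of the 9 members, against 7.23% of all genes and features, with Prim1 and Ung as the exceptions.

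PDGF-AA was then set against no factor at 12 h, as a difference between these groups. All 9 differences were above 0, with a median of 0.71, and all 9 had an unadjusted p below 0.05, as had 5.42% of all genes and features. None of the 9 passed after adjustment (limma, 0 of 9, with 0.0159% of all called higher). Rrm2 differed by 1.74 ± 0.31 (3.35-fold) and Lig1 by 1.12 ± 0.20 (95% interval 0.70 to 1.54, 2.17-fold), each with adjusted p = 0.0803. Gmnn differed by 1.06 ± 0.24 (0.55 to 1.57, adjusted p = 0.303) and Rrm1 by 0.91 ± 0.26 (0.35 to 1.47, adjusted p = 0.630). For 7 of the 9 members every PDGF-AA array lay above every no factor array, as held for 1.65% of all genes and features, and only for Prim1 and Ung did the arrays overlap.

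These calls depended on which arrays set the spread. The 12 h arrays all have the common title number, and on arrays of that number alone 3 of the 9 passed: Rrm2 (adjusted p = 0.00620), Lig1 (0.00294) and Gmnn (0.0330), with the same differences. These 3 also passed when the 12 h groups were fitted by themselves (adjusted p = 0.00847, 0.00847 and 0.0102 for Rrm2, Lig1 and Gmnn). The same genes passed with both replicate 4 arrays of 6 d left out (adjusted p = 0.00371, 0.0220 and 0.0129), where 0.0717% of all genes and features were called higher. Over the alternatives other than leaving out single arrays, 0 to 32 of all 12559 genes and features were called in this comparison, in either direction. The smallest differences at 12 h were those of Ung, at 0.44 (0.01 to 0.88), and Dtl, at 0.55 (0.17 to 0.92).

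**Figure D2:**
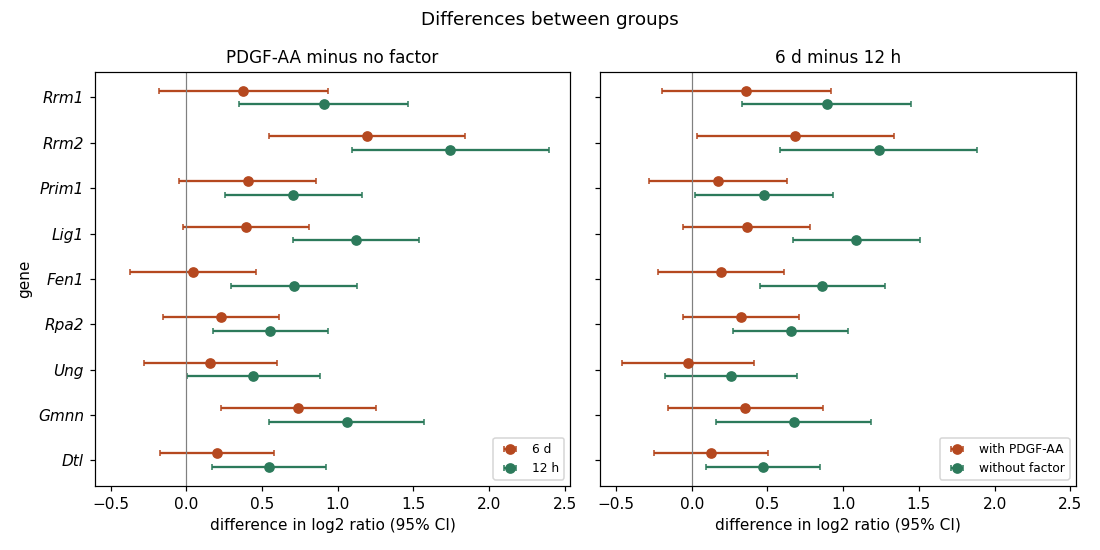
Fitted differences in log2 ratio for the 9 genes (vertical axis), PDGF-AA minus no factor on the left and 6 d minus 12 h on the right, with 95% confidence intervals. The Rrm2 interval is farthest from 0 in the PDGF-AA panel at 12 h, at 1.74, and in the same panel the 6 d intervals of 7 of the 9 genes, all but Rrm2 and Gmnn, include 0.

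At 6 d with PDGF-AA, 0 of the 9 members were called different from the FGF-2 reference by limma, where 1.32% of all genes and features were called lower and 1.9% higher, while 4 had an unadjusted p below 0.05, against 15.5% of all. Rrm2 read 0.83, 0.06, -0.33 and -1.46 on the 4 arrays, with a fitted value of -0.23 (95% interval -0.69 to 0.23). Gmnn read 0.17, -0.22, -0.37 and -1.64, or -0.52 (-0.88 to -0.15, adjusted p = 0.127), and Lig1 read 0.09, -0.72, 0.07 and -0.93, or -0.37 (-0.67 to -0.08). Replicate 4 was the lowest array for each of these 3.

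Rrm1 read 0.36, -0.49, -0.37 and -1.31 with PDGF-AA at 6 d, and Prim1 0.73, 0.43, -0.46 and -1.32. Fen1 read 0.19, 0.11, 0.13 and -0.68, and Rpa2 0.10, -0.17, 0.12 and -0.71. Ung was the member for which replicate 4, at 0.34, was not the lowest. With both replicate 4 arrays left out, the fitted values of the 9 lay between -0.20 (Gmnn) and 0.17 (Fen1), and 0 of 9 were called, with 0.788% of all called lower. Lig1 was called lower (-0.55, adjusted p = 0.0493) when PDGF-AA 6 d replicate 3 alone was left out. On arrays with the common title number alone, where PDGF-AA at 6 d is replicate 4 only and is assumed to vary like the other groups, Gmnn stood at -1.37 and Lig1 at -0.87.

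Without factor at 6 d, 6 of the 9 members were lower than in FGF-2 cells, where 6.73% of all genes and features were called lower. Rrm2 read -1.60, -1.54, -1.78 and -0.76, or -1.42 ± 0.22 in the fit (2.68-fold lower, adjusted p = 0.000310). Gmnn read -1.23, -1.34, -1.86 and -0.58, or -1.25 ± 0.17 (2.38-fold lower, adjusted p = 0.000124), and Lig1 read -0.95, -0.68, -0.88 and -0.57, or -0.77 ± 0.14 (adjusted p = 0.00119). For all 3 genes replicate 4 was the array nearest 0.

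Rrm1 at -0.83 ± 0.19 (adjusted p = 0.00586), Prim1 at -0.56 ± 0.15 (0.0193) and Dtl at -0.49 ± 0.13 (0.0131) were called lower as well. Rpa2 stood at -0.39 ± 0.13 (adjusted p = 0.0522), Fen1 at -0.11 and Ung at -0.09. Tested singly, Rpa2 feature 2 was called lower (-0.62, limma adjusted p = 0.0240) and feature 1 was not (-0.16). Fen1 feature 1 was called lower as well (-0.68, adjusted p = 0.0212), and feature 2 was not (0.47, adjusted p = 0.12). Fen1 feature 2 read 0.97 and 1.02 on replicates 1 and 2, while feature 1 read -1.18 and -0.55 there. With both replicate 4 arrays left out 7 of 9 were called lower, Rpa2 (-0.53, adjusted p = 0.00903) being added, where 6.15% of all were called lower. Without replicate 3 of the group the count was 3 of 9, with Rrm1, Prim1 and Dtl no longer called.

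Between PDGF-AA and no factor at 6 d, all 9 differences were above 0 but 0 of 9 passed (limma, with 0% of all called higher), and 2 had an unadjusted p below 0.05, against 8.76% of all genes and features. The arrays overlapped for all 9 members, while 1.31% of all had every PDGF-AA array above every no factor array. Rrm2 differed by 1.19 (95% interval 0.55 to 1.84, adjusted p = 0.395) and Gmnn by 0.74 (0.23 to 1.25, adjusted p = 0.431). Fen1 had the smallest difference, 0.04 (-0.37 to 0.46), but this averages features that went opposite ways. Feature 1 differed by 0.74 (0.18 to 1.30) and feature 2 by -0.65 (-1.21 to -0.10). Neither was called (limma adjusted p = 0.469 and 0.520).

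The calls of this comparison depended on PDGF-AA replicate 4. Once both replicate 4 arrays of 6 d were left out, Rrm2 was higher with PDGF-AA by 1.75 ± 0.26 and Gmnn by 1.21 ± 0.18 (adjusted p = 0.00479 for both), and the other 7 did not pass, with differences from 0.15 (Ung) to 0.77 (Rrm1). In that fit 0.446% of all genes and features were called higher. Rrm2 and Gmnn were also called when PDGF-AA replicate 4 alone was left out (adjusted p = 0.0229 and 0.0295). The arrays left out had been set apart by the values of the 9 genes, so these calls are not independent support for a difference. On arrays with the common title number, with PDGF-AA replicate 4 as the lone PDGF-AA array, 7 of the 9 differences turned below 0, among them Fen1 at -0.63 and Rrm1 at -0.41.

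Without factor, 3 of the 9 members were higher at 6 d than at 12 h, where 1.42% of all genes and features were called higher. Lig1 differed by 1.09 ± 0.20 (adjusted p = 0.00831), Fen1 by 0.86 ± 0.20 (adjusted p = 0.0314) and Rrm2 by 1.23 ± 0.31 (adjusted p = 0.04999). All 9 differences were above 0, with a median of 0.67, and for 6 of the 9 every 6 d array lay above every 12 h array, as held for 3.62% of all. The Rrm2 call was lost without the dye term or the centring, with arrays scaled to a common spread, with a term for the title number and with the median over features. The Fen1 call was lost without the dye term and with the title number term. Leaving out no factor 12 h replicate 1, 2, 3 or 4, or no factor 6 d replicate 2 or 4, left 1 of 9 (Lig1). With both replicate 4 arrays of 6 d left out the same 3 genes were called, with 1.16% of all called higher. The Fen1 difference was 1.17 on feature 1 (adjusted p = 0.0288) and 0.55 on feature 2 (adjusted p = 0.438).

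With PDGF-AA, 0 of the 9 differed between 6 d and 12 h (limma, 0.637% of all called higher at 6 d), 1 of them, Rrm2, with an unadjusted p below 0.05, against 11.3% of all. Rrm2 was 0.68 higher at 6 d (0.04 to 1.33) and Ung was 0.03 lower (-0.46 to 0.41). Once both replicate 4 arrays were left out, Rrm2 was higher at 6 d by 1.05 ± 0.24 (adjusted p = 0.0334), where 1.04% of all were called higher. The interaction, which compares the PDGF-AA difference at 6 d with that at 12 h, was called for 0 of 9 members and 0 of all 12559 (0%, limma). An unadjusted p below 0.05 was found for 2 of the 9, Lig1 and Fen1, against 497 or 3.96% of all. The fitted values were all below 0, from -0.72 (Lig1) to -0.28 (Ung), and ran from -0.45 (Lig1) to 0.15 (Gmnn) with both replicate 4 arrays left out, so a difference between the time points was not shown for any member.

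In the order of the group means, no factor at 12 h was the lowest group for all 9 members, below a middle pair of no factor at 6 d and PDGF-AA at 12 h, and PDGF-AA at 6 d was the highest for 8 of the 9, although no member was called between PDGF-AA at 6 d and at 12 h (limma, 0 of 9). On arrays with the common title number, where PDGF-AA at 6 d is replicate 4 alone, 8 of the 9 were lower in value with PDGF-AA at 6 d than at 12 h, such as Rrm2 by a difference of -0.39. The middle pair differed by less than the SD for Rrm1, at -0.83 ± 0.35 without factor at 6 d and -0.81 ± 0.27 with PDGF-AA at 12 h (SD, n = 4 each) and for Lig1, at -0.77 ± 0.18 and -0.74 ± 0.14 in the same groups. Rrm2 had the widest spread of group means, at -0.23 ± 0.95 with PDGF-AA at 6 d, -1.42 ± 0.45 without factor at 6 d, -0.91 ± 0.37 with PDGF-AA at 12 h and -2.66 ± 0.20 without factor at 12 h (SD, n = 4 each). The exception at the top was Ung, at 0.07 with PDGF-AA at 6 d and 0.09 with PDGF-AA at 12 h.

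**Figure D3:**
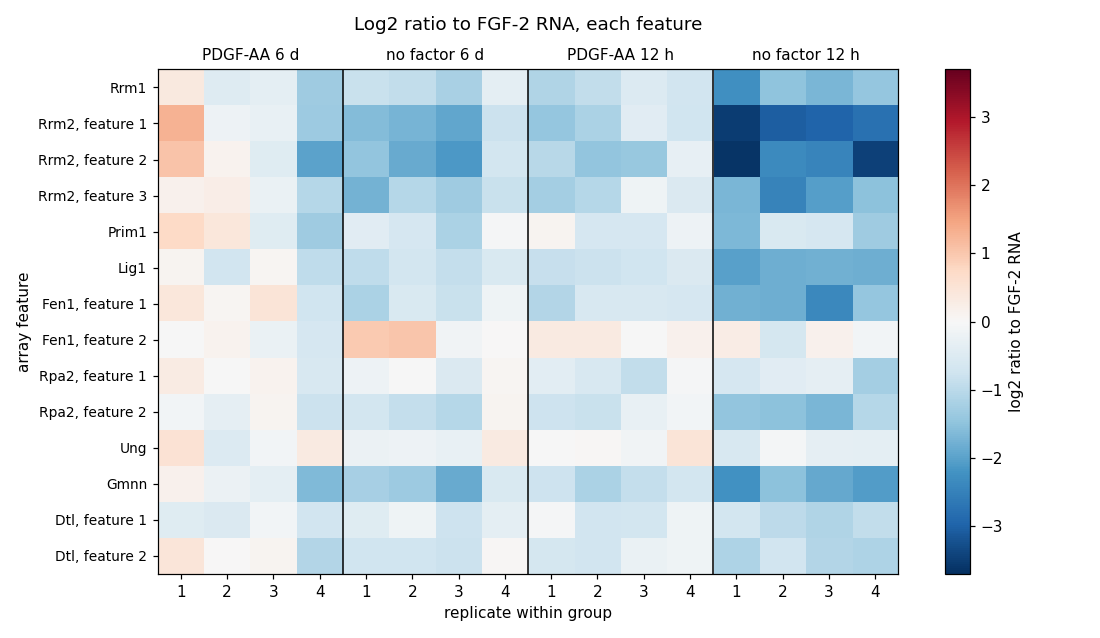
Centred log2 ratio to FGF-2 RNA of the 14 array features of the 9 genes (rows) on the 16 arrays (columns, replicates 1 to 4 within each group), blue below 0 and red above. Without factor at 12 h Fen1 feature 2 runs from -0.66 to 0.26, while Fen1 feature 1 averages -1.85, and PDGF-AA 6 d replicate 4 is bluer than the other PDGF-AA 6 d columns.

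Tested feature by feature over 15150 features, 12 of the 14 were called lower without factor at 12 h, where 6.9% of all features were, and the exceptions were Fen1 feature 2 and the Ung feature. At 6 d without factor 11 of 14 were called lower (6.91% of all), and with PDGF-AA at 12 h 5 of 14 (2.53% of all). For PDGF-AA against no factor at 12 h, Rrm2 feature 2 was called higher, by 1.93 ± 0.31 (adjusted p = 0.0385), and the other 13 were not. Over the 16 arrays the Rrm2 features correlated at 0.78 to 0.93, those of Rpa2 at 0.51 and those of Dtl at 0.53. These points share arrays, dyes and reference, and the correlations are descriptions.

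Among themselves the 9 members moved closely over the 16 arrays with the dye effect removed, with Ung apart. Rrm2 and Gmnn correlated at 0.96, Rpa2 and Dtl at 0.95, and Rrm1 and Rrm2 at 0.93, while the correlations of Ung with the other members lay between 0.30 and 0.60. Among 6232 other named genes, Rrm1 was most like Smc4, a condensin subunit gene, at 0.98. Rrm2 was most like Mcm3, part of the replicative helicase, at 0.98 and Chaf1a, a chromatin assembly factor gene, at 0.97. Gmnn was most like Mcm6 at 0.97, Lig1 most like Chaf1a at 0.97 and Prim1 most like Bub1, a spindle checkpoint kinase gene, at 0.93.

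Rpa2 and Dtl were both most like Hirip3, a gene of a histone-binding protein, at 0.95 and 0.93. Fen1 was most like Nop58, a nucleolar protein gene, at 0.91. Usp1, a deubiquitinating enzyme gene, was among the 3 closest genes of 5 members (Rrm2, Lig1, Fen1, Rpa2 and Gmnn). Ung had the lowest top value, 0.87 with Lrrcc1. All these correlations are over 16 arrays of 4 groups with 1 reference, so they follow the group means in large part.

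The counts of the pathway lists below can be read against the share of all genes and features called in the same group. This was 1.32% lower and 1.9% higher with PDGF-AA at 6 d, 6.73% and 6.99% without factor at 6 d, 2.35% and 0.661% with PDGF-AA at 12 h, and 6.48% and 5.21% without factor at 12 h. In the fit without both replicate 4 arrays of 6 d, PDGF-AA against no factor called 0.446% higher at 6 d. At 12 h that share was 0.0717%. Those arrays were set apart in part by values of the 9 genes, with which list genes such as Mcm3 and Mcm6 moved closely. List calls of that fit are therefore descriptions and not independent support.

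Of the other genes that supply nucleotides, 14 of 24 measured were called lower without factor at 12 h and 0 higher, with a list median of -0.41 against -0.0010 for all genes and features. Tk1, the thymidine kinase of the salvage route, stood at -1.79 ± 0.20, the mitochondrial folate enzyme gene Mthfd2 at -1.66 ± 0.19 and the serine hydroxymethyltransferase gene Shmt2 at -0.79 ± 0.09. With PDGF-AA at 12 h 5 of 24 were lower, with Tk1 at -1.05 ± 0.20, Shmt2 at -0.43 and Paics, an enzyme of purine synthesis, at -0.41. At 6 d 0 of 24 were called with PDGF-AA and 8 were lower without factor, among them Mthfd2 at -1.31, Paics at -0.67 and Nme1, a nucleoside diphosphate kinase gene, at -0.57, with Tk1 at -1.04. These counts were 0 and 10 with both replicate 4 arrays of 6 d left out, and that of PDGF-AA at 12 h was then 8. In that fit Nme1 and Mthfd2 were higher with PDGF-AA than without factor at 6 d, where the fit on all arrays called 0.

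Of the other genes of DNA synthesis at the fork, 17 of 28 were lower and 1 higher without factor at 12 h (list median -0.49). The higher one, named after its value was seen, was Pole3, a small subunit gene of polymerase epsilon, at 0.43. Pole, the catalytic subunit gene of DNA polymerase epsilon, stood at -1.87 ± 0.19, the helicase component gene Cdc45 at -1.32 ± 0.15 and the clamp loader subunit gene Rfc3 at -1.18 ± 0.12. With PDGF-AA at 12 h 9 of 28 were lower and 0 higher, among them Pold2, a subunit gene of polymerase delta, at -0.86, Gins4, of the helicase complex, at -0.67 and Rfc3 at -0.64. At 6 d 0 of 28 were called with PDGF-AA, and 12 were lower and 1 higher (Pole3 again, at 0.33) without factor, with Rfc3 at -0.95, the RPA subunit gene Rpa3 at -0.87 and the fork protection gene Tipin at -0.66. Leaving out both replicate 4 arrays of 6 d gave 0 called with PDGF-AA, and 9 lower and 1 higher without factor, and Pole was then higher with PDGF-AA than without factor at 6 d.

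Of the origin licensing genes, 11 of 17 were lower without factor at 12 h (list median -0.66). Mcm6, Mcm3 and Mcm7, all subunits of the replicative helicase, stood at -2.59 ± 0.23, -2.17 ± 0.21 and -0.84 ± 0.09. With PDGF-AA at 12 h 2 of 17 were lower, Mcm3 at -0.81 and Dbf4, the activator of the Cdc7 kinase, at -0.66. Mcm6 was the only gene of the 5 pathway lists called between PDGF-AA and no factor at 12 h, 2.11 ± 0.32 higher (adjusted p = 0.0329), with Mcm3 and Ccne1 added when both replicate 4 arrays of 6 d were left out. At 6 d 1 of 17 was lower with PDGF-AA, Mcm7 at -0.47, and 11 were lower without factor, with Mcm7 at -1.04, Mcm3 at -1.32 and Mcm2 at -1.06. With both replicate 4 arrays of 6 d left out, 0 were called with PDGF-AA at 6 d and 11 were lower without factor. In that fit 5 of 17 were higher with PDGF-AA than without factor at 6 d, against 0.446% of all, where the fit on all arrays called 0. They were Mcm2, Mcm3, Mcm5, Mcm6 and Mcm7, named after their values were seen. The choice of the arrays left out rests in part on genes that moved with Mcm3 and Mcm6, so these calls are not independent support.

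**Figure D4:**
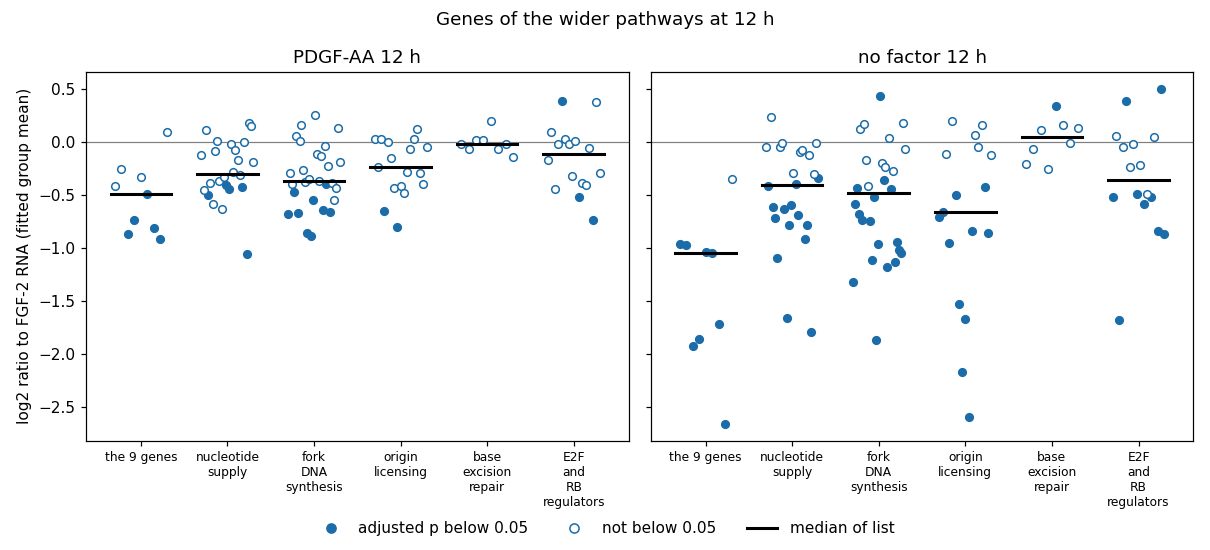
Fitted log2 ratio to FGF-2 RNA (vertical axis) of the 9 genes and of the other measured genes of 5 pathway lists (horizontal axis) at 12 h, with PDGF-AA on the left and without factor on the right, filled where the adjusted p is below 0.05 and with a bar at each list's median. The median of the 9 genes is -0.49 with PDGF-AA and -1.04 without factor, and base excision repair lies near 0 in both panels.

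Base excision repair is the pathway in which Ung acts. Without factor at 12 h 0 of 8 measured genes were lower and 1 was higher, against 6.48% and 5.21% of all genes and features. This was the DNA polymerase beta gene Polb at 0.34 ± 0.09. With PDGF-AA at 12 h 0 of 8 were called (limma, list median -0.02). At 6 d Parp1, a sensor of strand breaks, was lower both with PDGF-AA (-0.37 ± 0.09) and without factor (-0.54 ± 0.09), and Apex1, the endonuclease that acts after Ung, was lower without factor (-0.47 ± 0.14). With both replicate 4 arrays of 6 d left out, 0 of 8 were called with PDGF-AA, and 2 were lower (Parp1 and Apex1) and 1 higher (Xrcc1, named after its value was seen) without factor.

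Among E2F and RB regulators 7 of 16 were lower and 2 higher without factor at 12 h. The cyclin E gene Ccne1 stood at -1.68 ± 0.15, the E2F partner gene Tfdp1 at -0.87 ± 0.11 and Rbl1, an RB relative, at -0.84 ± 0.11. The higher genes, named after their values were seen, were Cdk4, a kinase that acts on RB, at 0.38 and Rbl2, another RB relative, at 0.50. With PDGF-AA at 12 h Rbl1 (-0.74) and the repressor gene E2f7 (-0.52) were lower, and Cdk4 was higher at 0.38. That count of 2 lower was 4 with both replicate 4 arrays of 6 d left out, Ccne1 and Mybl2 being added. At 6 d 0 of 16 were called with PDGF-AA and 3 were lower without factor, Ccne1 at -0.79, Rbl1 at -0.39 and E2f5 at -0.38. The counts were again 0 with PDGF-AA and 3 lower without factor with both replicate 4 arrays left out, but E2f5 was then replaced by Mybl2. Ccne1 was higher with PDGF-AA than without factor at 6 d in that fit.

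Cell type markers were read as ratios, so they show differences from the FGF-2 cells and not presence. Astrocyte markers (4 of 8 measured) averaged -0.04 to 1.64 on the arrays with PDGF-AA at 6 d, the highest being replicate 4, and 0.77 to 1.89 on those without factor at 6 d, the lowest being replicate 4. They averaged 0.09 to 0.32 with PDGF-AA at 12 h and 0.34 to 0.67 without factor at 12 h. By limma, 2 of the 4 were called higher with PDGF-AA at 6 d and 3 without factor at 6 d, while 0 were called with PDGF-AA at 12 h, and 1 was higher and 1 lower without factor at 12 h. In the fit without both replicate 4 arrays of 6 d, 1 was called higher with PDGF-AA at 6 d and 1 at 12 h, and 3 were lower with PDGF-AA than without factor at 6 d, against 1.38% of all. At 6 d replicate 4 thus lay at the end of its group that faces the other 6 d group. Leaving out both replicate 4 arrays widens the 6 d difference of these markers by that choice itself. With PDGF-AA at 6 d, replicate 1 at -0.04 also lay away from replicates 2 and 3, at 0.73 and 0.82.

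Neuron markers (4 of 10 measured) averaged -0.44 to 0.21 with PDGF-AA at 6 d, 0.20 to 0.65 without factor at 6 d, 0.25 to 0.37 with PDGF-AA at 12 h and 0.12 to 0.42 without factor at 12 h. Of these 4, 2 were called higher without factor at each time, 1 with PDGF-AA at 12 h and 0 with PDGF-AA at 6 d by limma. Neural progenitor markers (3 of 10 measured) averaged -0.74 to 0.03 with PDGF-AA at 6 d, -0.62 to -0.22 without factor at 6 d, -0.68 to 0.08 with PDGF-AA at 12 h and -0.56 to 0.05 without factor at 12 h. The ranges of the progenitor markers overlapped between all 4 groups. Nes was called lower at 6 d both with PDGF-AA (-0.83) and without factor (-0.89), and Vim without factor at 12 h (-0.81). Mesenchymal markers (4 of 7 measured) averaged 0.20 to 0.89 with PDGF-AA at 6 d, 0.73 to 0.88 without factor at 6 d, -0.11 to 0.42 with PDGF-AA at 12 h and 0.18 to 0.41 without factor at 12 h. Of these 4, 2 were called higher with PDGF-AA at 6 d, 3 without factor at 6 d, 0 with PDGF-AA at 12 h and 1 without factor at 12 h (limma). The mesenchymal counts became 1, 3, 1 and 1 in these groups with both replicate 4 arrays left out, and the neuron and progenitor counts did not change. The oligodendrocyte lineage list had 1 of 9 measured, Pdgfra, called higher without factor at 6 d (1.51) and in no other group against the reference. Pdgfra, with both replicate 4 arrays left out, stood at 2.18 without factor at 6 d, was called higher without factor at 12 h as well (0.97), and was lower with PDGF-AA than without factor at 6 d (-1.85). Its own values were among those that set these arrays apart, so the calls of that fit are not independent support. Microglia (2 of 9) and endothelium (2 of 6) markers had 0 called in every group by limma. The part of these cell types in the values of the 9 genes was not tested.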

How the data were processed

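Expression was measured on 16 two-colour cDNA chips. Per the labels, each channel took 40 µg of total RNA through reverse transcription with a dye nucleotide, and spots were read with QuantArray. The RNA is from rat and the chip holds mouse cDNA. The authors deposited 1 log ratio per feature and array, taken here as log2; background correction, normalisation and filters are not given in the sources used here. All 16 columns were used (0 left out). Spot intensities were not used here, so the number of arrays limits the precision.

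Gene names came from the platform's mouse annotation, which can be old: of 15151 features 8833 had 1 symbol, 606 several and 5712 none. Arrays were centred on their median and features of 1 symbol averaged. A unit needed values on 3 arrays of each group, which left 12559. With limma 3.58.1 in R 4.3.3 (checked on simulated data), 4 group coefficients and a dye term were fitted and variances moderated (eBayes). P-values are two-sided and adjusted by Benjamini-Hochberg over all units, with a threshold of 0.05. Ratios against 0 treat the FGF-2 RNA as 1 shared sample and leave out its own spread. Comparisons that share a group are not independent.

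The 9 members were always named. From each pathway list up to 3 genes with the lowest adjusted p past the threshold in the group described were named, with Pcna, Tyms and Tk1 where measured, and for each member its closest genes by Pearson correlation. Genes of FGF and ERK signalling served for the direction. Members and lists were chosen with earlier results of these data known. Alternatives varied centring, dye term, scaling, title number, arrays, weights and averaging, and left out each array in turn. Testing features singly and leaving out both replicate 4 arrays of 6 d were chosen after seeing the data.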

Additional observations from a re-analysis of the deposited data

Results flagged for a closer look

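Of 36 combinations of member and group, 2 had an array far from the other 3 by Dixon's test, which by chance marks about 1 in 20. Fen1 with PDGF-AA at 6 d read -0.68 on replicate 4, against 0.11 to 0.19 on the other arrays. Lig1 without factor at 12 h read -2.00 on replicate 1, against -1.82 to -1.79 on the other arrays, a gap of small absolute size in a group with little spread.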

How the results depend on the processing

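Over all members, comparisons and alternatives, 1953 of 2106 values kept their direction and their side of the threshold, 62 lost the call, 45 gained it and 46 changed sign. The count of 8 members lower without factor at 12 h was 8 with any single array left out. For PDGF-AA at 12 h it was 1 without a dye term, 3 where every feature of a gene had to pass, and 0 to 6 with single arrays left out. For PDGF-AA at 6 d it was 2 on arrays with the common title number and 0 to 1 with single arrays left out, and for no factor at 6 d 3 to 7. For PDGF-AA against no factor at 12 h it was 3 on arrays with the common title number, 3 with only the compared groups fitted, 4 with array weights, 3 without both replicate 4 arrays of 6 d, 1 where any feature sufficed and 0 to 3 with single arrays left out (2, 1 and 3 without PDGF-AA 6 d replicates 1, 3 and 4). At 6 d it was 2 without both replicate 4 arrays and 0 to 2 with single arrays left out. For 6 d against 12 h it was, without factor, 1 with no dye term, 1 with the title number as a term, 5 with array weights, 1 where every feature had to pass and 1 to 4 with single arrays left out, and with PDGF-AA 1 without both replicate 4 arrays. The cause of these shifts was not tested.

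Signs changed as follows. On arrays with the common title number, PDGF-AA against no factor at 6 d gave Rrm1 -0.41, Prim1 -0.46, Lig1 -0.18, Fen1 -0.63, Rpa2 -0.21, Gmnn -0.20 and Dtl -0.36. On the same arrays, 6 d against 12 h with PDGF-AA gave Rrm1 -0.40, Rrm2 -0.39, Prim1 -0.61, Lig1 -0.13, Fen1 -0.51, Rpa2 -0.049, Ung 0.42, Gmnn -0.50 and Dtl -0.36. There Ung was 0.017 without factor at 6 d and its interaction 0.052. With the title number as a term, Ung was 0.030 without factor at 6 d, Fen1 -0.21 for PDGF-AA against no factor at 6 d, and 6 d against 12 h with PDGF-AA gave Prim1 -0.073, Fen1 -0.18, Ung 0.33 and Dtl -0.045. Without both replicate 4 arrays of 6 d, PDGF-AA at 6 d gave Rrm2 0.14, Prim1 0.11, Fen1 0.17 and Ung -0.050, and the interaction gave Rrm2 0.00094, Prim1 0.014 and Gmnn 0.15. With single arrays left out, PDGF-AA at 6 d ranged over -0.52 to 0.13 for Rrm2, -0.31 to 0.10 for Prim1, -0.16 to 0.16 for Fen1 and -0.067 to 0.31 for Ung. Ung ranged over -0.0098 to 0.17 with PDGF-AA at 12 h, Fen1 over -0.23 to 0.027 without factor at 6 d and over -0.090 to 0.27 for PDGF-AA against no factor at 6 d. For 6 d against 12 h with PDGF-AA, Ung ranged over -0.16 to 0.22 and Dtl over -0.018 to 0.31.

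Counts of all genes and features called, in the fit reported, were 404 with PDGF-AA at 6 d (28 with only the compared group fitted, 622 with arrays scaled to a common spread), 1723 without factor at 6 d (990 without a dye term, 1901 with array weights), 378 with PDGF-AA at 12 h (156 without a dye term, 1745 with array weights) and 1468 without factor at 12 h (830 and 2300 in the same settings). PDGF-AA against no factor had 1 at 6 d (up to 229, without both replicate 4 arrays) and 2 at 12 h (up to 32, with array weights). For 6 d against 12 h there were 135 with PDGF-AA (9 with the title number as a term, 259 without both replicate 4 arrays) and 235 without factor (87 without a dye term, 469 with array weights). With single arrays left out they ranged over 157 to 461 and 1012 to 1802 at 6 d and 76 to 489 and 740 to 1564 at 12 h (PDGF-AA, then no factor), 1 to 58 and 0 to 8 between PDGF-AA and no factor at 6 d and 12 h, and 48 to 211 and 111 to 300 between 6 d and 12 h with PDGF-AA and without factor. The lowest of the counts against FGF-2 were without PDGF-AA 6 d replicate 2, no factor 6 d replicate 1, PDGF-AA 12 h replicate 1 and no factor 12 h replicate 2. The filter on missing values removed nothing. No paired analysis was possible because the replicate numbers follow deposition order and the labels tie no arrays across groups.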
